A study of Caenorhabditis elegans with 12 samples.

Results

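Most numbered col- genes of Caenorhabditis elegans encode cuticle collagens, and 142 of the 158 numbered col- genes measured here are described. Genes were taken by name, as every col- gene with a number except 16 that the rule leaves out, among them the adult collagen gene col-19 and the dauer collagen gene col-2, so the counts below do not cover the whole family. The choice was made with earlier results of these data known, and most of the 16 left out differed between conditions. The members are 142 of 20018 genes on the array, and the log2 of their normalised intensity was averaged over the features of a gene. Expression was measured in whole worms on 12 single-colour arrays, 1 for each of 3 strains in 4 conditions. The static flight worms were loaded as dauer larvae, flown for 16.5 days at 23 °C without centrifugation, with a dose of 1.92 mGy, and collected 7 h after landing. The centrifuged flight worms were in a slot spun to 1 g on the same mission and had a dose of 2.27 mGy. The ground control was run in a static slot of the same device 2 days later, and the transport control stayed in an incubator at the submitters' university, with no duration or temperature in the labels. In each condition the strains were LS292 dys-1(cx18), mutant for the worm dystrophin gene, MT4930 ced-1(n1995), mutant for a receptor in the engulfment of dying cells, and the wild type N2. Each strain is 1 line, and the 3 arrays of a condition differ in strain, so a p-value measures the spread between these arrays only. Values on the arrays of a condition are given for dys-1, ced-1 and the wild type, in that order, and all levels are log2 intensities.

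The nematode cuticle is an extracellular coat built mainly of collagens that the hypodermis, the skin of the worm, secretes. Short collagen chains are hydroxylated, folded into trimers, cleaved and cross-linked outside the cell, and a new cuticle is made at every moult and again, in altered form, when a larva enters or leaves the dauer stage. Different collagen genes are therefore known to be switched on at different stages and in waves within each moulting cycle.

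The members gave signals from weak to very strong. Their mean level spanned 6.34 for col-78 to 14.55 for col-3, and since every gene has its own probes these levels do not rank the amounts of transcript. The other strongest signals were those of col-125 at 13.98, col-80 at 13.83, col-107 at 13.73 and col-176 at 13.61. Next to col-78 the weakest were col-55 at 6.35, col-56 and col-165, both at 6.44, and col-52 at 6.46. For 16 members no array reached a log2 level of 8, an intensity of 256, and the same held for 39.7% of all genes, against 11.3% of the members. Between conditions the members differed more widely than genes in general. The range of the 4 condition means had a median of 1.10 over the members and 0.51 over all genes, and it was above 1 for 77 members (54.2%), against 14.9% of all genes. The widest ranges were those of col-7 at 4.38, col-62 at 4.35, col-88 at 4.25, col-36 at 4.18 and col-122 at 4.09. The narrowest belonged to the weak genes col-165 at 0.16, col-187 at 0.18 and col-75 at 0.21, to col-153 at 0.22, whose mean level of 7.93 is also low, and to the strongly detected col-125 at 0.20.

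The members fell into 4 co-varying groups and a remainder. The groups came from average-linkage clustering on 1 minus the Pearson correlation over the 12 arrays, with the tree cut at 0.5 and groups of at least 5 genes kept, so they describe the values and carry no test. Group A held 72 members and was lowest in the transport control and highest in static flight. Group B held 18 members and was highest in the transport control. Group C held 18 members that were on average lower in both flown conditions than in both controls, and group D held 5 members that averaged 0.38 in static flight, 0.14 in centrifuged flight, −0.09 in the ground control and −0.43 in the transport control relative to each gene's mean. The other 29 members belonged to no group, and 14 of those were among the 16 weakly detected genes. The profiles of groups A and B ran against each other, with r = −0.80 over the 12 arrays, while r was 0.67 between A and D and 0.49 between B and C. The points are the 12 arrays, which all genes share, and no p is given.

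**Figure D1:**
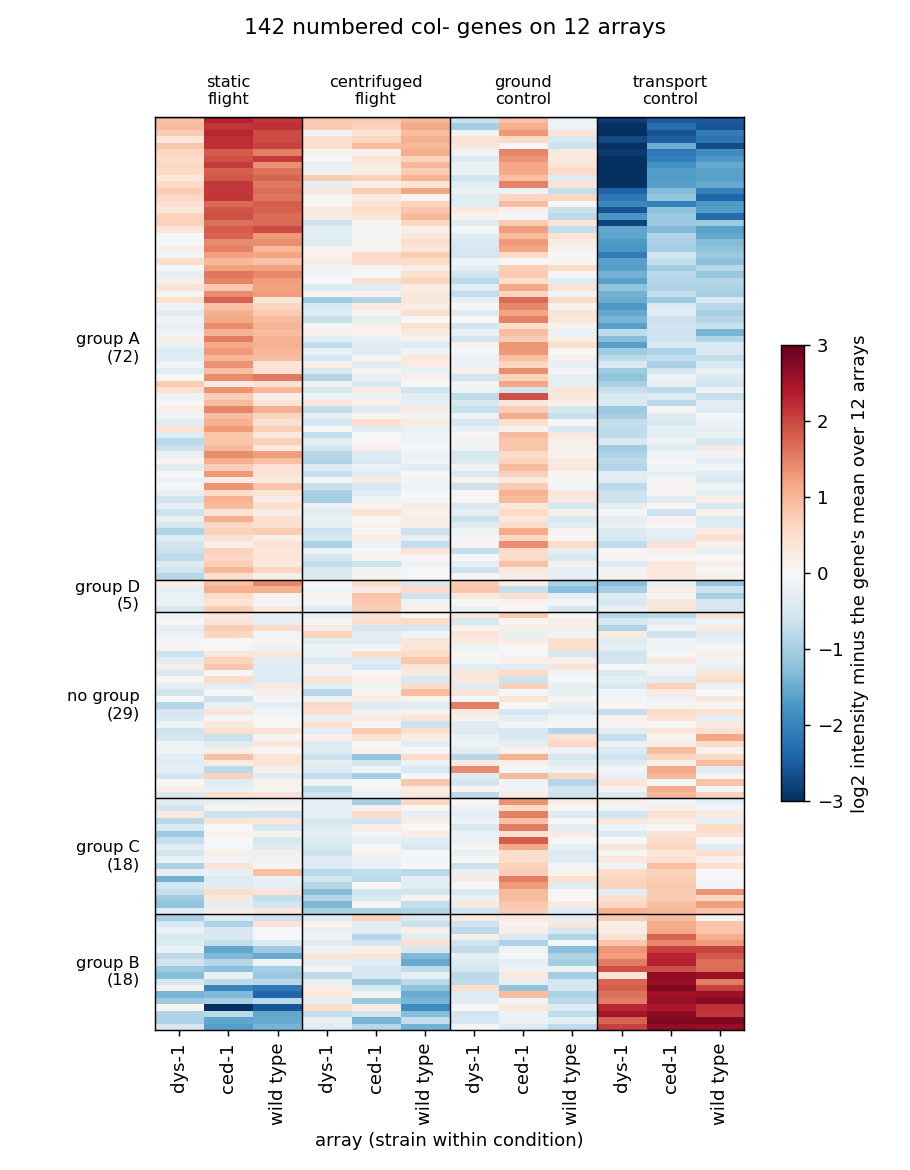
Levels of the 142 members (rows, ordered by co-varying group) on the 12 arrays (columns, strains within conditions), as log2 intensity minus the gene's mean over the arrays; colours stop at 3 log2 units in each direction. Group A is red in static flight and blue in the transport control, group B is the reverse, and the ced-1 ground control column is redder than its neighbours in groups A and C.

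**Figure D2:**
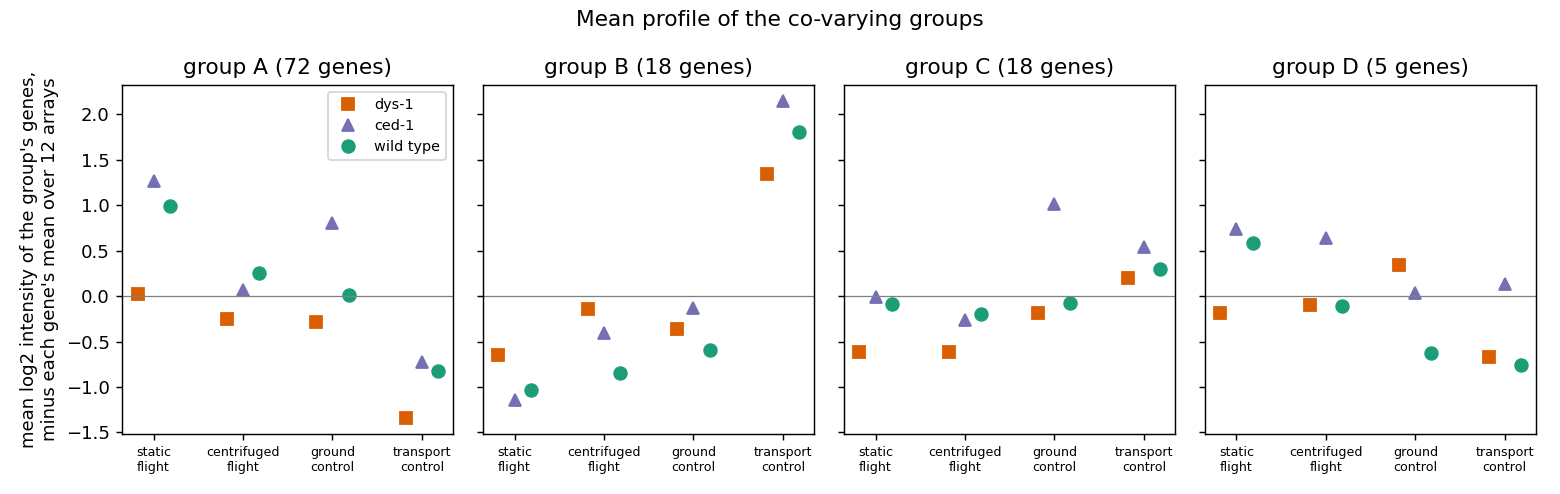
Mean profile of each co-varying group on every array (y axis, mean log2 intensity minus each gene's mean), with a symbol per strain. In group A the dys-1 array is the lowest of the 3 in every condition, and in group C the ced-1 ground control array stands at 1.01, above all others.

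Group A contained genes with known stage roles, among them the adult collagen genes col-7 and col-62 and the L4 genes col-38, col-49 and col-63, which are known to depend on the transcription factor LIN-29. Relative to each gene's mean, the group averaged 0.76 in static flight, 0.03 in centrifuged flight, 0.18 in the ground control and −0.97 in the transport control. Static flight was the highest condition for 56 of its members and the ground control for 15, and the transport control was the lowest for 57. The members closest to the group's profile were col-77 (r = 0.99), col-130, col-162 and col-13 (each r = 0.98). A correlation below 0.5 with the profile was found for col-107, col-125 and col-169, the loosest of its members. Group A also held col-66 and col-182, both listed as pseudogenes in the WBcel235 RefSeq gene table. col-66 was weak throughout, with condition means from 6.78 to 7.12, whereas col-182 averaged 9.88 in static flight and 8.04 in the transport control.

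The adult collagen gene col-7 had the widest range of all members. It read 10.63, 12.06 and 11.88 in static flight, 10.51, 10.52 and 10.76 in centrifuged flight, 9.08, 10.64 and 9.60 in the ground control, and 6.93, 7.26 and 7.23 in the transport control. All 9 arrays of the first 3 conditions lay above all 3 of the transport control, and static flight overlapped the ground control only through its dys-1 array and the ced-1 array of the ground control. Its neighbour in the WBcel235 gene order, col-62, followed it with r = 1.0, at 11.06, 12.30 and 12.33 in static flight, 10.94, 10.84 and 11.29 in centrifuged flight, 9.13, 11.22 and 10.00 in the ground control, and 7.18, 7.86 and 7.59 in the transport control. Whether the probes of the pair share sequence was not checked.

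col-88, a further member with a wide range, read 11.24, 12.76 and 12.44 in static flight, 10.40, 10.87 and 11.40 in centrifuged flight, 10.35, 11.79 and 10.88 in the ground control, and 7.44, 7.87 and 8.38 in the transport control. For the L4 gene col-49 the values were 10.55, 11.89 and 12.10 in static flight, 9.94, 10.41 and 10.67 in centrifuged flight, 9.57, 11.31 and 10.28 in the ground control, and 6.95, 7.95 and 8.27 in the transport control. In both genes the transport control lay apart from the other conditions, and the ced-1 ground control array reached the level of static flight. col-184 read 12.03, 13.38 and 12.93 in static flight, 11.60, 12.02 and 12.44 in centrifuged flight, 11.07, 11.12 and 10.55 in the ground control, and 8.83, 9.97 and 9.24 in the transport control. In contrast to col-88 and col-49, every flown array of col-184 lay above every ground control array, the ced-1 array included.

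**Figure D3:**
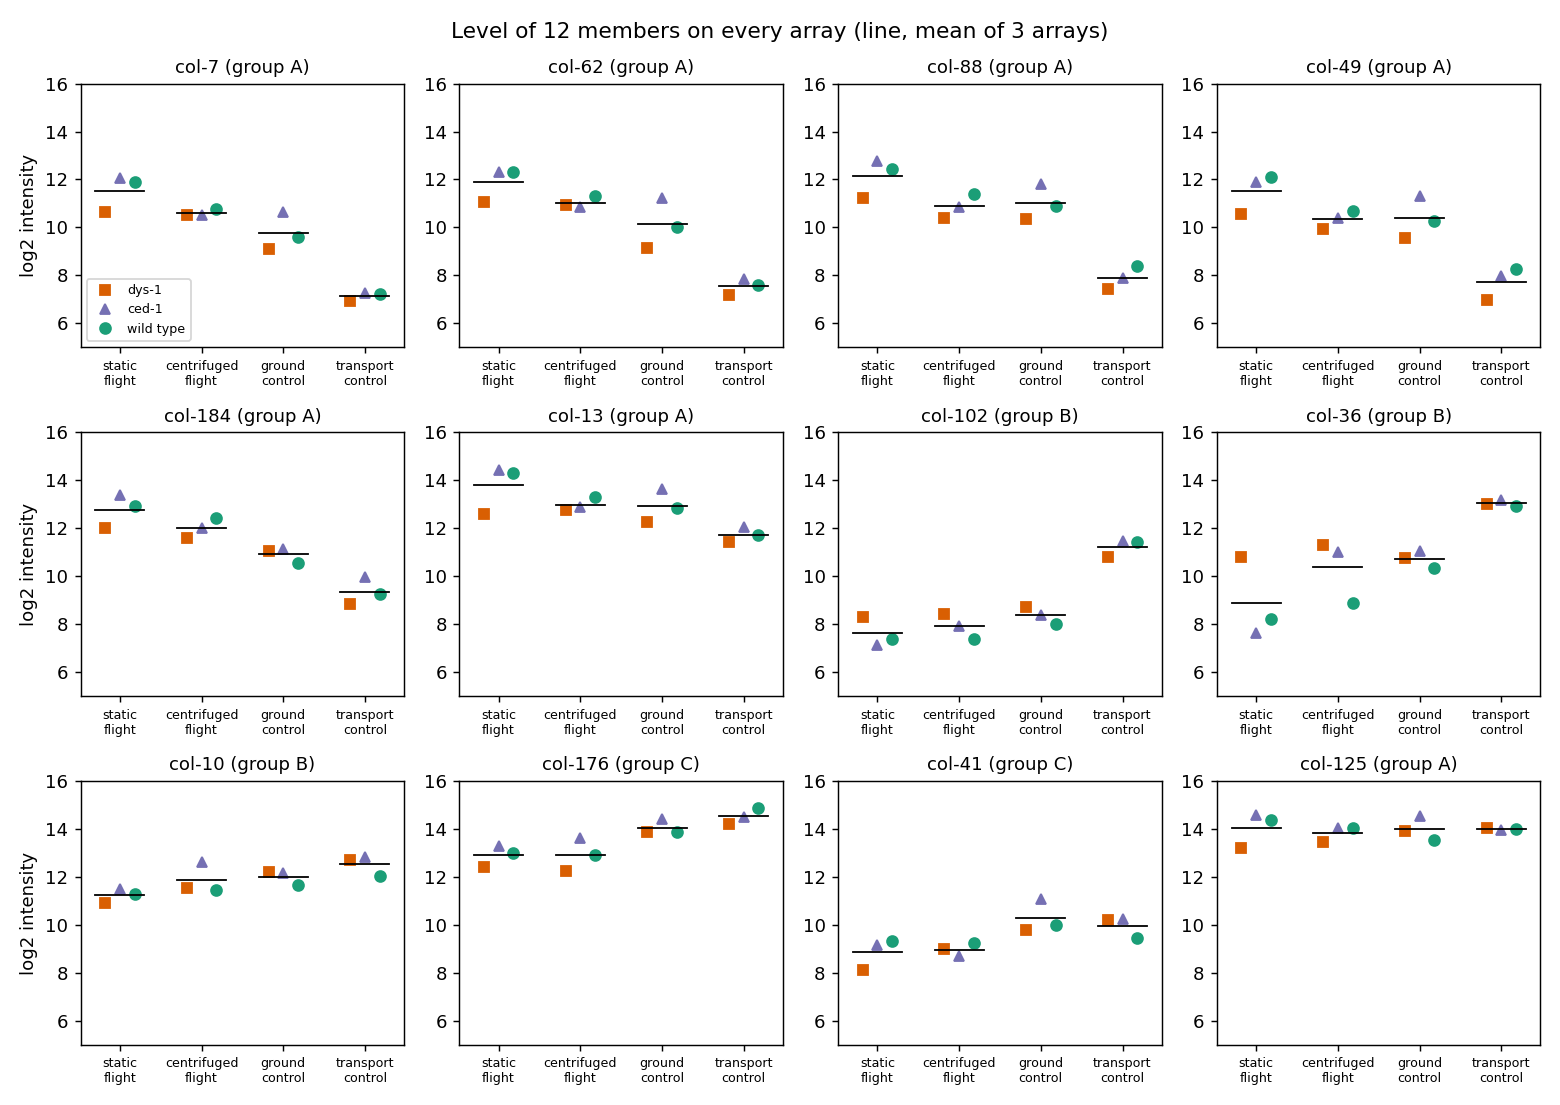
Log2 intensity (y axis) of 12 members on every array, by condition (x axis) and strain (symbols), with the mean of 3 arrays as a line. The upper genes step down to the transport control, col-102, col-36 and col-10 step up to it, and col-125 stays between 13.20 and 14.59.

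Group B was on average lowest in static flight and highest in the transport control, the reverse of A. Its median range of condition means was 2.86, against 1.5 in group A. Within the transport control the strains were not reversed, as dys-1 was lowest and ced-1 highest in both groups. Group B averaged −0.94 in static flight, −0.47 in centrifuged flight, −0.36 in the ground control and 1.77 in the transport control, which was the highest condition for all 18 members. Closest to its profile were col-102 (r = 0.99), col-44 (0.98), col-35 and col-85 (both 0.97). col-102 read 8.31, 7.12 and 7.39 in static flight, 8.44, 7.92 and 7.36 in centrifuged flight, 8.72, 8.40 and 8.01 in the ground control, and 10.82, 11.45 and 11.42 in the transport control. Among the first 3 conditions its dys-1 array was each time the highest, and the lowest transport control array lay over 2 log2 units above all 9 of them. col-36, the member of B with the widest range, read 10.81, 7.61 and 8.20 in static flight, 11.29, 11.0 and 8.88 in centrifuged flight, 10.76, 11.07 and 10.34 in the ground control, and 13.02, 13.20 and 12.94 in the transport control. Its dys-1 arrays stayed between 10.76 and 11.29 outside the transport control, while those of the other strains dropped below 9 in static flight, and in the wild type also in centrifuged flight. The longevity collagen gene col-10, which is linked to worm lifespan, also belonged to B and varied less, with means of 11.25 ± 0.30 in static flight, 11.89 ± 0.65 in centrifuged flight, 12.02 ± 0.31 in the ground control and 12.53 ± 0.44 in the transport control (SD, n = 3 each).

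Group C moved less, with a median range of 0.72, and averaged −0.24 in static flight, −0.36 in centrifuged flight, 0.25 in the ground control and 0.35 in the transport control. A single array bears much of that shape, since the ced-1 ground control stood at 1.01 against −0.18 in dys-1 and −0.07 in the wild type of the same condition. With that array left out, an alternative chosen after seeing the data, 10 members of C joined the 18 of B in a group of 28. The closest members were col-128 (r = 0.91), col-46, col-131 and col-34, and col-172 had the widest range. The strongly detected col-176 read 12.44, 13.31 and 13.01 in static flight, 12.26, 13.65 and 12.91 in centrifuged flight, 13.88, 14.42 and 13.87 in the ground control, and 14.23, 14.52 and 14.87 in the transport control. All of its 6 flown arrays lay below all 6 control arrays. The body size gene col-41, a known target of the worm BMP-like signal, read 8.11, 9.17 and 9.33 in static flight, 8.98, 8.71 and 9.23 in centrifuged flight, 9.80, 11.07 and 10.02 in the ground control, and 10.19, 10.27 and 9.46 in the transport control. Here too no flown array reached any control array. Group D held col-179, col-96, col-105 and col-186 with the adult collagen gene col-119. col-119 was highest in static flight in ced-1 (12.92) and the wild type (12.88), but the dys-1 array was highest in the ground control (12.62). Outside the groups, 15 members were not weak, and col-98, col-101 and col-103 had mean levels above 10. The transmembrane collagen gene col-99, known from neurons, was at 7.46 ± 0.45 in static flight, 7.70 ± 0.31 in centrifuged flight, 7.31 ± 0.41 in the ground control and 7.60 ± 0.72 in the transport control (SD, n = 3 each).

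Differences between conditions were tested for all 20018 genes with limma, with strain as a factor, and a member passed at a Benjamini-Hochberg adjusted p under 0.05. For any difference among the 4 conditions, 65 of the 142 members passed (45.8%), against 8.23% of all genes. Of the 16 col- genes left out by name, 15 passed. In worms harvested whole, fewer cells making a collagen and less transcript per cell cannot be told apart, and the comparisons below share arrays with one another. The groups were formed on the same arrays, so counts by group are descriptions.

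Against the transport control the ground control differed in many members, in both directions. Of the members 35 rose (24.6%, against 3.09% of all genes) and 16 fell (11.3%, against 2.25%), together 35.9% against 5.34%. All 35 that rose belonged to group A and all 16 that fell to group B, a split favoured by clustering on these same arrays. Each of these genes had the same sign in all 3 strains. The largest rises were those of col-88, by 3.11 ± 0.29 on the log2 scale (SE of the fit, 3 arrays in each condition), which is 8.63-fold (limma adjusted p = 7.43e-05), col-112, also known as the blister gene bli-6, at 2.84 ± 0.33, col-49 at 2.66 ± 0.29, col-124 at 2.64 ± 0.38, and col-7 at 2.63 ± 0.30. They were followed by col-138 (2.63 ± 0.25), col-71 (2.60 ± 0.29), col-38 (2.58 ± 0.29), col-62 (2.58 ± 0.34) and col-122 (2.31 ± 0.37), with limma adjusted p from 7.43e-05 to 0.00177 over the 10 genes. The largest fall was that of col-85, by 2.93 ± 0.20 (7.64-fold, limma adjusted p = 1.61e-05), after which came col-102 at −2.85 ± 0.32, col-44 at −2.75 ± 0.34, col-35 at −2.71 ± 0.35 and col-50 at −2.62 ± 0.45. Also lower were col-51, col-45, col-114, col-33 and col-158, from −2.51 to −2.40, and the limma adjusted p of the 10 falls reached at most 0.00315. col-85 itself read 8.98, 9.40 and 8.80 in the ground control, against 12.05, 12.24 and 11.69 in the transport control. Its groups were more than 2 log2 units apart.

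Marker genes of tissues and stages differed in the same comparison. The 5 cuticle genes dpy-7, dpy-13, rol-6, sqt-3 and bli-1 had a mean level of 10.78 to 11.94 over the ground control arrays. In the transport control they were at 10.09 to 10.49, and 2 of 5 passed, upward, a count not repeated with arrays left out. In static flight the cuticle genes were at 10.60 to 11.91. The 5 yolk protein genes of the adult intestine had a mean level of 10.20 to 11.17 over the ground control arrays, against 8.81 to 10.33 in the transport control, and 1 of 5 passed, upward. That count was 4 without the wild type array of either control and 0 without the dys-1 or ced-1 array of either. The 8 sperm genes were at 10.47 to 10.94 in the ground control, against 8.67 to 9.14 in the transport control, and 7 of 8 rose. The 7 oocyte and embryo genes were at 10.41 in dys-1, 10.84 in ced-1 and 10.63 in the wild type in the ground control, against 9.20, 9.37 and 11.69 in the transport control. The wild type array thus went against the other strains, 0 of 7 passed, and without the wild type array of the transport control 6 of 7 rose. The 3 dauer markers, cut-1, col-2 and col-40, were at 9.04 to 10.06 in the ground control, against 10.97 to 11.48 in the transport control, and 2 of 3 fell. That count was 1 without the dys-1 array of the ground control or the wild type or ced-1 array of the transport control, and 3 without its dys-1 array. Of these markers col-2 and col-40 are among the 16 col- genes left out, a choice made with earlier results of these data known. In addition, col-40 is weak, with a mean level of 6.5. cut-1 alone read 10.64, 11.69 and 10.91 in the ground control, against 13.44, 13.81 and 13.67 in the transport control. In static flight the yolk genes were at 10.98 to 11.87, the sperm genes at 10.85 to 11.83, the oocyte and embryo genes at 10.99 to 11.99 and the dauer markers at 7.57 to 9.24. The dauer markers were lowest in static flight in ced-1 and the wild type, but in the ground control in dys-1. The arrays carry no detection flag, so no marker can be called absent. The part of worm stage in the collagen differences was not tested.

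When static flight, centrifuged flight and the ground control were set together against the transport control, 41 members rose (28.9%, against 6.47% of all genes) and 22 fell (15.5%, against 6.0%), together 44.4% against 12.5%. The ground control arrays take part in this contrast too. Of the rises 40 were in group A and 1, that of col-179, in D. Of the falls 18 were in B, the whole group, and 4 in C, those of col-46, col-149, col-172 and col-176, the members of both small counts being named after their values were seen. The call of col-179 was lost without the centrifuged flight array of dys-1 or ced-1 or any transport control array (limma adjusted p from 0.0527 to 0.209). That of col-46 was lost without 8 of the arrays, all but the static flight array of ced-1, the centrifuged flight array of the wild type and the ground control arrays of the wild type and ced-1 (0.0532 to 0.244). That of col-149 was also lost without 8, all but the ground control arrays and the centrifuged flight array of dys-1 (0.0551 to 0.224). col-7 rose by 3.49 ± 0.25 (11.2-fold), col-62 by 3.47 ± 0.27 and col-88 by 3.45 ± 0.24 (SE, limma adjusted p from 1.67e-06 to 3.26e-06), and col-139, at 2.81 ± 0.27, joined the 10 largest rises. col-102 fell by 3.27 ± 0.26 (9.61-fold), col-85 by 3.24 ± 0.17 and col-44 by 3.24 ± 0.28 (limma adjusted p from 4.54e-07 to 6e-06), and col-36 by 3.05 ± 0.46.

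The flown pair, static and centrifuged flight together, was next set against the pair of controls. Here 29 members rose (20.4%, against 4.28% of all genes) and 20 fell (14.1%, against 1.66%), together 34.5% against 5.94%. The transport control is 1 of the 2 conditions on the control side. All 29 rises were in group A. The falls were spread over B (14), C (5, col-41, col-46, col-149, col-172 and col-176) and A (1, col-169), and those of the small counts were named after their values were seen. col-62 rose by 2.63 ± 0.24 (6.19-fold, limma adjusted p = 6.01e-05), col-7 by 2.60 ± 0.22, col-122 by 2.50 ± 0.26 and col-184 by 2.27 ± 0.21. The falls included col-36 at −2.25 ± 0.40, col-158 at −2.12 ± 0.29, col-44 at −2.12 ± 0.24, col-102 at −2.05 ± 0.23 and col-85 at −1.93 ± 0.14 (3.82-fold, limma adjusted p = 1.98e-05). In group C the fall of col-176 was 1.37 ± 0.18 (limma adjusted p = 0.000382) and that of col-41 was 1.21 ± 0.25 (limma adjusted p = 0.00993). The 6 flown arrays lay wholly above the 6 control arrays for 4 members, col-122, col-178, col-181 and col-184 (2.82%, against 0.614% of all genes), and wholly below for 2, col-176 and col-41 (1.41%, against 0.2% of all genes). The 2 features averaged for col-181 were at 6.57 and 11.58 with r = 0.1 over the 12 arrays, so its separation is uncertain. Of the falls in C and A, col-41 and col-176 kept their calls with each array left out. That of col-172 was lost without the static flight array of dys-1 or ced-1, the centrifuged flight array of ced-1 or the transport control array of dys-1 (limma adjusted p from 0.0563 to 0.0751). The call of col-46 was lost without the static flight array of the wild type or dys-1, the centrifuged flight array of dys-1 or ced-1, the ground control array of ced-1 or the transport control array of dys-1 (0.0592 to 0.0829). That of col-149 held only without the ground control array of the wild type (otherwise 0.0501 to 0.101), and that of col-169 only without the static flight array of the wild type (otherwise 0.0593 to 0.163).

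Static flight alone differed from the ground control in few members past the threshold. Only col-184 and col-7 passed, both higher, 1.41% of the members against 0.19% of all genes (0.21% in either direction). Among the 16 col- genes left out by name 4 passed, all higher. Their median difference was 0.91 log2 units, against 0.1 over the members, so the small count does not hold for the whole family. The rise of col-184 was 1.87 ± 0.30 (SE, 3.65-fold, limma adjusted p = 0.0406), and its values of 12.03, 13.38 and 12.93 in static flight did not overlap the 11.07, 11.12 and 10.55 of the ground control. col-7 rose by 1.75 ± 0.30 (3.36-fold, limma adjusted p = 0.0406), with groups that overlapped. Its neighbour col-62 was at 1.78 ± 0.34 and did not pass (limma adjusted p = 0.0524). Before adjustment, p was under 0.05 for 37 members on the high side (26.1%, against 8.33% of all genes) and 16 on the low side (11.3%, against 3.38%), together 37.3% against 11.7%. The lower ones did not pass after adjustment, with col-176 at −1.14 ± 0.26 (limma adjusted p = 0.0846), col-41 at −1.42 ± 0.35 (0.104) and col-158 at −1.56 ± 0.41 (0.121).

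Both calls rested on few arrays. col-184 was lost without the static flight array of the wild type (limma adjusted p = 0.279) or ced-1 (0.292), the ground control array of the wild type (0.212) or ced-1 (0.115), the centrifuged flight array of dys-1 (0.0625) or the transport control array of dys-1 (0.0618). col-7 was lost without the static flight array of the wild type (limma adjusted p = 0.282) or ced-1 (0.338), the ground control array of the wild type (0.218) or dys-1 (0.0821), the centrifuged flight array of the wild type (0.063) or dys-1 (0.0625), and the transport control array of dys-1 (0.0636) or ced-1 (0.0553). Fitted without the strain factor, 0 members passed, with limma adjusted p = 0.116 for col-184 and 0.157 for col-7.

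Static against centrifuged flight, the comparison that sets microgravity against 1 g on the same mission, gave 0 members past the threshold by limma, against 0.005% of all genes. Before adjustment, p was under 0.05 for 46 on the high side (32.4%, against 7.94% of all genes) and 6 on the low side (4.23%, against 4.02%), together 36.6% against 12.0%, and 43 of the 46 were in group A. The median difference over the members was 0.34 log2 units and that over all genes was 0, with 69.7% of the members and 50.6% of all genes above 0. Marker genes shifted as well, without passing. Above 0 were 8 of 8 sperm genes (median 0.82) and 7 of 7 oocyte and embryo genes (0.83). So were 5 of 5 yolk genes (0.48), 5 of 5 cuticle genes (0.63) and 3 of 3 body muscle genes (0.13), while all 3 dauer markers were below 0 (−0.77). The part of worm stage in this shift was not tested. In group A 71 of the 72 members were above 0, but the group was formed on these same arrays and its genes are not replicates. The smallest p belonged to col-175, at 10.31, 11.27 and 11.30 in static flight and 8.98, 9.72 and 10.23 in centrifuged flight, a difference of 1.32 ± 0.25 (SE, limma adjusted p = 0.0824). col-109 was at 1.17 ± 0.22 (limma adjusted p = 0.0824) and col-48 at 1.27 ± 0.25 (0.0849). The static flight arrays of col-175 and col-109 lay above all centrifuged flight arrays, and those of col-48 overlapped them. On the low side stood col-158 at −1.28 ± 0.41, col-123 at −1.05 ± 0.36 and col-185 at −0.67 ± 0.24 (limma adjusted p from 0.216 to 0.27). The size of the shift differed by strain without a test, with a mean over group A of 0.27 in dys-1, 1.20 in ced-1 and 0.74 in the wild type.

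Centrifuged flight against the ground control likewise gave 0 members past the threshold by limma, against 0.035% of all genes. Before adjustment, p was under 0.05 for 10 on the high side (7.04%, against 3.09% of all genes) and 21 on the low side (14.8%, against 2.93%), together 21.8% against 6.02%. col-169 had the smallest p, at 9.63, 10.35 and 10.59 in static flight, 9.22, 10.00 and 9.43 in centrifuged flight, 10.24, 11.56 and 10.76 in the ground control, and 9.42, 10.61 and 10.31 in the transport control. Its centrifuged flight arrays lay below all ground control arrays, by −1.30 ± 0.24 on average (SE, limma adjusted p = 0.168). Also lower, without passing, were col-157 at −1.16 ± 0.26 (limma adjusted p = 0.355) and col-176 at −1.12 ± 0.26 (0.388), and on the high side col-184 at 1.11 ± 0.30 (0.493), col-98 at 0.93 ± 0.28 (0.614) and col-87 at 0.75 ± 0.30 (0.754). The strains did not move together in this comparison. Group A averaged 0.03 in dys-1, −0.74 in ced-1 and 0.24 in the wild type, and group C −0.43 in dys-1, −1.26 in ced-1 and −0.13 in the wild type.

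**Figure D4:**
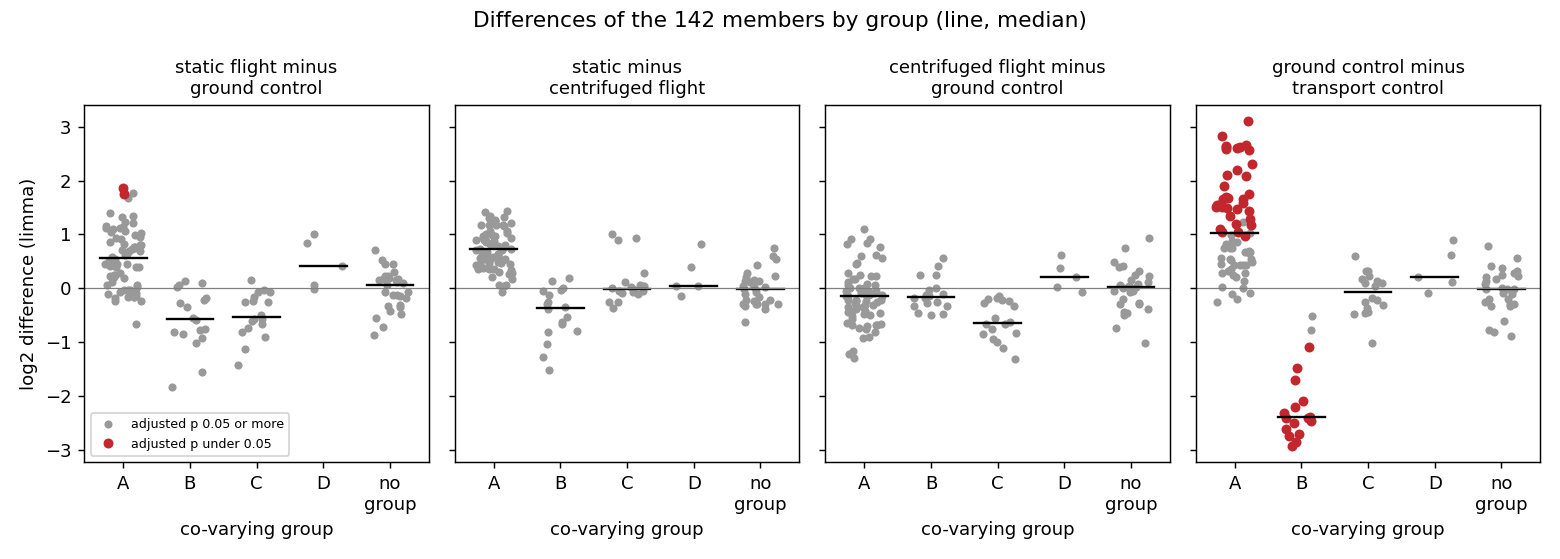
Difference of every member (points, log2 units from limma) in 4 comparisons, by co-varying group, with the group median as a line and members at adjusted p under 0.05 in red. Ground against transport control parts group A (35 rises) from group B (16 falls), while static flight against the ground control has 2 red points, both in A. The groups were formed on the same arrays.

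In each mutant many members lay on 1 side of the wild type at once, without any single one passing. The members co-vary and each strain is 1 line, so such counts are descriptions. In dys-1 against the wild type 0 members passed by limma, against 0.0% of all genes. Before adjustment, p was under 0.05 for 3 members that were higher (2.11%, against 7.59% of all genes) and 50 that were lower (35.2%, against 7.28%), together 37.3% against 14.9%. The median over the members was −0.40 log2 units and that over all genes −0.03, and 17.6% of the members were above 0, against 46.1% of all genes. Below 0 were 117 of 142 members, among them all 72 of group A. Lower in dys-1 in each of the 4 conditions were 62 members (43.7%, against 13% of all genes), and dys-1 was the lowest strain for 112 (78.9%, against 42.6% of all genes). The smallest p belonged to col-175, whose transport control values were 6.85 in dys-1, 8.53 in ced-1 and 8.55 in the wild type and whose static and centrifuged flight values stand above. It was at −1.17 ± 0.22 over the conditions (SE, 4 arrays per strain, limma adjusted p = 0.0957), col-138 at −1.08 ± 0.22 (0.115) and col-49 at −1.08 ± 0.25 (0.147). Without the wild type array of the ground control 8 members passed (5.63%, against 1.64% of all genes), all lower, col-175 (−1.32), col-138 (−1.21) and col-49 (−1.30) among them. Higher in dys-1 in all 4 conditions without passing were col-36 at 1.38 ± 0.49 (limma adjusted p = 0.23) and col-85 at 0.44 ± 0.18 (0.276), both of group B. col-50, also of B and named after its values were seen, was at 1.11 ± 0.39 (0.228), but at −0.24 in the transport control.

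By condition the median difference of dys-1 from the wild type was −0.75 in static flight, −0.41 in centrifuged flight, −0.21 in the ground control and −0.46 in the transport control. Most marker genes of other cell types and stages also lay on 1 side of the wild type in dys-1. The 5 cuticle genes named above were all below 0, with a median of −0.57. All 5 yolk protein genes, 8 of 8 sperm genes and 7 of 7 oocyte and embryo genes were below 0, with medians of −0.70, −0.44 and −1.06, and the 3 dauer markers had a median of 0.89, 2 of them above 0. The 3 body muscle genes were at a median of 0.13, which ran from −0.05 to 0.30 with each array left out. Without the wild type array of the transport control the median was −0.60 for the oocyte and embryo genes and −0.28 for the yolk genes, 4 of which stayed below 0. The yolk median was −0.41 without the dys-1 array of the transport control, and the dauer marker median was 0.13 without that of static flight. None of these genes passed in the fit over all arrays, and the part of stage in the strain difference was not tested. In ced-1 the oocyte and embryo genes were also below 0, 7 of 7 with a median of −0.51. From static flight to the transport control their mean level was 11.99, 11.16, 10.84 and 9.37 in ced-1, against 11.95, 11.02, 10.63 and 11.69 in the wild type. Above 0 in ced-1 were all 5 yolk genes, 7 of 8 sperm genes, 4 of 5 cuticle genes, 3 of 3 dauer markers and 3 of 3 muscle genes.

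In ced-1 the members lay slightly higher. By limma 0 passed against the wild type, against 0.0% of all genes, and before adjustment p was under 0.05 for 11 that were higher (7.75%, against 2.78%) and 2 that were lower (1.41%, against 2.51%), together 9.15% against 5.29%. The median was 0.22 over the members and 0 over all genes, with 122 of 142 members above 0 (85.9%, against 49.5% of all genes). Higher in all 4 conditions were 14 members (9.86%, against 6.06% of all genes). The smallest p-values were those of col-105 at 0.94 ± 0.22, col-54 at 0.79 ± 0.21 and col-85 at 0.65 ± 0.18 (SE, limma adjusted p = 0.908 for each). By condition the median was 0.17 in static flight, −0.17 in centrifuged flight, 0.70 in the ground control and 0.16 in the transport control. On the ground control array of ced-1, 123 of 142 members lay above the wild type. Below the wild type there were 13.4% of the members, against 53.0% of all genes. That array had the lowest mean intensity of the 12 arrays, 902.3 where the highest was 1159.6, and its part in the ced-1 difference was not tested.

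**Figure D5:**
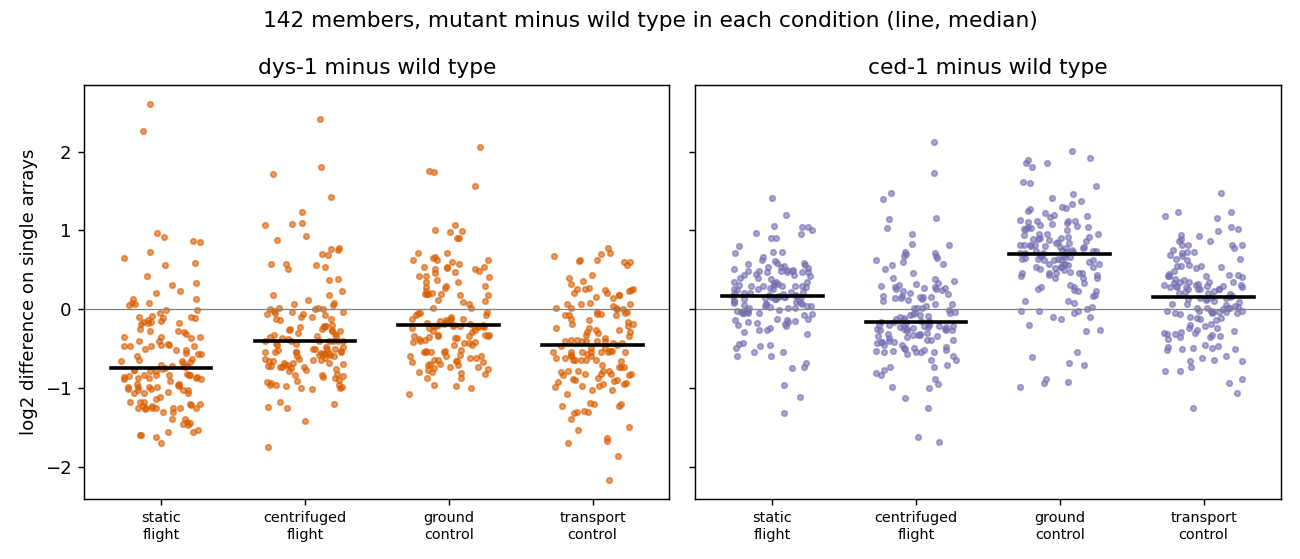
Difference of each mutant from the wild type (log2 units, single arrays) for the 142 members in each condition, with the median as a line. The dys-1 medians are below 0 in all 4 conditions, from −0.75 to −0.21, and the highest ced-1 median, 0.70, is in the ground control.

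Strain by flight interactions, which ask whether the flown and control pairs differ by another amount in a mutant than in the wild type, gave 0 members past the threshold by limma for either mutant, against 0.0% of all genes. Before adjustment, p was under 0.05 for 10 members in dys-1 (7.04%, against 4.32% of all genes) and 11 in ced-1 (7.75%, against 4.86% of all genes). The values with the smallest p for dys-1 were −1.58 ± 0.47 for col-178, −1.52 ± 0.46 for col-153 and 2.26 ± 0.78 for col-36 (SE, limma adjusted p = 0.995 for each). For ced-1 they were −1.58 ± 0.37 for col-165, 1.43 ± 0.39 for col-58 and 1.54 ± 0.48 for col-187 (limma adjusted p = 0.92 for each).

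Members with known roles were read against these comparisons as lists chosen for this tissue. Of the 3 adult collagen genes, col-7 and col-62 rose in the ground control against the transport control and in the flown pair against the controls, while col-119 was at 0.11 ± 0.49 and 0.87 ± 0.35 and did not pass (SE, limma adjusted p = 0.934 and 0.18). Without the ground control array of dys-1, col-119 was at −0.78 and 1.31 instead, and the second of these passed (limma adjusted p = 0.00178). All 3 L4 genes rose in both comparisons, and the third of them, col-63, did so by 1.66 ± 0.40 and 1.33 ± 0.28 (limma adjusted p = 0.0272 and 0.012). The first of these calls was lost without the ground control array of dys-1 or ced-1 or the transport control array of the wild type or ced-1 (0.0647 to 0.174). Of the 4 longevity genes, col-120 rose by 2.10 ± 0.30 and 1.69 ± 0.21 (limma adjusted p = 0.000832 and 0.000284) and col-13 by 1.19 ± 0.31 and 1.06 ± 0.22 (0.0424 and 0.0115). col-10 went the other way, at −0.51 ± 0.26 and −0.70 ± 0.19 (limma adjusted p = 0.311 and 0.0396), and col-144 was at 0.68 ± 0.29 and 0.13 ± 0.21 (0.217 and 0.807). The call of col-13 against the transport control held without the static flight array of dys-1, the centrifuged flight arrays of dys-1 and ced-1 and the ground control array of the wild type, and was lost without any of the other 8 arrays (limma adjusted p from 0.0505 to 0.215). That of col-10 in the flown pair held without the wild type arrays of static flight and the transport control and the ced-1 arrays of centrifuged flight and the ground control, and was lost without any of the other 8 (0.0759 to 0.127). The 3 targets of BMP-like signalling did not move as a set: col-142 rose by 1.24 ± 0.18 in the flown pair (limma adjusted p = 0.000669), col-41 fell by 1.21 ± 0.25 as above, and col-141, the neighbour of col-142, was at −0.68 ± 0.24 (0.128).

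Genes that process collagen chains moved in both directions against the transport control. Of 17 such genes 3 rose and 3 fell when the other 3 conditions were set against it, a comparison in which 6.47% of all genes rose and 6.0% fell. The moulting protease gene nas-37 rose by 0.99 ± 0.18 (SE, limma adjusted p = 0.00244), the prolyl 4-hydroxylase gene phy-3 by 0.98 ± 0.24 and the peroxidase gene mlt-7 by 0.94 ± 0.23. The dual oxidase gene bli-3, whose product cross-links the cuticle, fell by 1.20 ± 0.26 (limma adjusted p = 0.0072), its tetraspanin partner tsp-15 by 1.01 ± 0.22 and the prolyl 4-hydroxylase gene phy-2 by 0.90 ± 0.21. Without the ced-1 array of the transport control only the call of nas-37 held, with limma adjusted p from 0.105 to 0.204 for the other 5 genes. phy-3 and mlt-7 were also lost without its wild type array (0.0543 and 0.0704), and phy-2 without its dys-1 array (0.0651). In the ground control against the transport control, where 5.34% of all genes passed, 2 of the 17 did, nas-37 at 1.15 ± 0.22 and tsp-15 at −1.0 ± 0.26 (limma adjusted p = 0.00677 and 0.0447). Neither passed when the fit was limited to both controls (0.0569 and 0.174). The call of tsp-15 held only without the wild type array of either control (otherwise 0.0565 to 0.277).

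Members that lie next to each other were more often in 1 group than members in general. In the WBcel235 order of protein-coding genes 140 members were placed, and 36 of them stood in 15 runs of adjacent members. The 21 neighbouring pairs had a median correlation of 0.70 over the 12 arrays, against 0.25 for all 10011 pairs of members, and 52.4% of them shared a group, against 28.7% of all pairs. These are descriptions with no test. col-92, col-93 and col-94 stood together with r = 0.99 and 0.94, and col-12 and col-13, which are known to encode near-identical chains, had r = 0.99. Arrays cannot separate such copies where probes match both, and their sequences were not compared here. Not all neighbours were alike: col-144 and col-145 of group A had r = 0.85, while col-145 and the adjacent col-10 of group B had r = −0.21.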

How the data were processed

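Total RNA of whole worms was labelled with Cy3 and hybridised to single-colour NimbleGen arrays, 1 for each of 3 strains and 4 conditions, a number that limits the precision. The deposited files hold linear intensity values per feature, which per the submitters' processing notes the authors normalised with RMA, version not given. That method evens out array distributions, so a change in total RNA is not visible. The deposited series table repeats 18185 of the 23187 features, on which its log2 values differ from the per-array files by at most 1.3e-06.

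Here the deposited intensity was converted to log2 with no offset, and the features of each gene were averaged. The 142 members had 147 features of 5 probes each. The 2 features of col-166 and of col-181 differed widely in level (7.35 and 13.33, 6.57 and 11.58), with r = 0.69 and 0.1 over the 12 arrays. The means of these genes are therefore uncertain. All 142 members matched the WBcel235 RefSeq table by sequence name. For 140 of them the symbol was the same, while col-112 is listed there as bli-6 and col-70 only as H17B01.2.

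limma 3.58.1 in R 4.3.3 fitted condition and strain over all 12 arrays (6 residual and 7.71 prior degrees of freedom; 4 and 7.14 for interactions), and p-values were adjusted over 20018 genes. Arrays of a replicate number hold the same strain per the labels, which is the pairing; their deviations from condition means correlated over all genes by 0.31 in dys-1, 0.10 in ced-1 and 0.05 in the wild type on average. The members and lists were chosen with earlier results of these data known. Genes were named by rule: up to 10 per direction past the threshold with 1 sign throughout, or otherwise up to 3 with 1 sign throughout and the smallest p, the members closest to each group's profile and with the widest range, the extremes of level and range, and the role lists. On simulated data with 200 of 20018 genes changed, static flight against ground control recovered 36% of 2-fold and 100% of 4-fold changes, with 11 false calls. The simulated noise was independent between genes and had no strain effect, so it lacks the joint shifts of genes seen on these arrays. Alternatives covered normalization, offset, variance model, strain factor, dim genes, arrays in the fit, tree height and each array left out. No genome or sequence table was used, so no coordinates or sequences are given.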

Additional observations from a re-analysis of the deposited data

Results flagged for a closer look

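In 7 members the flown arrays and the control arrays of 1 strain parted fully in one direction and those of another strain in the opposite one, 4.93% of the members against 9.5% of all genes. Values are mean flown minus mean control log2 intensity within a strain, from 2 arrays on each side. In dys-1 against the wild type these were −0.77 and 0.42 for col-17, −0.23 and 0.70 for col-96, −0.44 and 0.38 for col-118, −0.65 and 0.45 for col-125, and −0.85 and 0.67 for col-153. In ced-1 against the wild type they were −0.95 and 0.63 for col-165, and 0.85 and −0.69 for col-187. The interaction of strain and flight was tested for all 7 by limma and none passed, with the smallest adjusted p of any member at 0.995 for dys-1 and 0.92 for ced-1. col-165 and col-187 are weakly detected, and groups of 3 arrays are too small for a search for single outlying arrays.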

How the results depend on the processing

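In place of 2 members, static flight against the ground control gave 0 after quantile normalization, 0 after median centring, 0 with no replicate block for strain, 0 with only the 2 conditions in the fit, 6 with an offset of 50 and 5 with a trended and robust variance, which also gave 1 member for centrifuged flight against the ground control. With each array left out in turn the count ran from 0 to 4 for static flight against the ground control, 39 to 56 for ground against transport control, 50 to 67 for the other 3 conditions against it, 43 to 50 for the flown against the control pair, 51 to 72 for any difference among conditions and 0 to 8 for dys-1 against the wild type, where the 8 came without the wild type array of the ground control. Over all genes the share passing with an array left out ran from 2.46% to 8.91% for ground against transport control. It ran from 4.86% to 16.3% for the other 3 conditions against the transport control, and from 0% to 1.64% for dys-1. For the other comparisons and alternatives the share over all genes was not counted. The count of members stayed at 0 throughout for static against centrifuged flight, for ced-1 and for both interactions, and with each array left out also for centrifuged flight against the ground control. Of the named values, col-119 in the ground against the transport control ran from −0.78 to 0.66 with each array left out and col-144 in the flown against the control pair from −0.01 to 0.34, neither of them past the threshold. The calls lost with single arrays left out are given beside the results, and 73 named calls held with each of the 12 arrays left out, the highest adjusted p being 0.0496 for col-13 in the flown pair. Without the pairing by strain the calls of col-63, col-13 and tsp-15 in the ground against the transport control were lost too (adjusted p = 0.0599, 0.169 and 0.129), as were those of col-13, col-10, col-46, col-149 and col-169 in the flown pair (0.0704 to 0.268) and of col-46, col-149 and col-179 against the transport control (0.0532 to 0.214). With only the conditions compared in the fit col-13 and nas-37 were lost in the ground against the transport control (0.0573 and 0.0569), and with an offset of 50 col-63 was lost there (0.0604) and col-179 in the other 3 conditions against the transport control (0.0571). Quantile normalization ended the calls of tsp-15 in the ground control (0.0605) and of col-46 and col-149 in the 3 conditions (0.0606 and 0.0631), and the trended and robust variance that of tsp-15 (0.056). Cutting the tree at 0.4 kept 55 members of group A, 17 of B, 7 of C and 3 of D together, and at 0.6 D joined A in a group of 77 while C grew to 25. Without the ced-1 ground control array 59 of 72 members of A stayed together in a group of 64, which also took in 4 of the 5 members of D. Signals near the floor of the array limit the 16 weakly detected members.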

Other observations

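Some genes outside the col- family had nearly the profile of a group over the 12 arrays. Closest to group A were pqn-2 (r = 0.991) and emb-9 (0.988), which encodes a chain of the basement membrane collagen type IV and averaged 10.94 in static flight, 10.24 in centrifuged flight, 10.36 in the ground control and 9.50 in the transport control. Also near A were Y82E9BR.2, pqn-54 and idpc-5. Closest to group B were mtre-1 (r = 0.989) and Y57E12B.4 (0.977), both with transport control means above 10.5 and means below 7.5 in the other conditions, and then the insulin-like peptide gene ins-33, daf-42 and the hedgehog-related gene grl-25. Group C was matched less closely, by T12E12.6 (0.948), subs-4, the transthyretin-like gene ttr-35, atg-10 and W08E12.6, and group D by srw-29 (0.946) and ttc-39B. These genes were picked from 20018 for their correlation, so the values are descriptions. Of the 16 numbered col- genes left out by name, the closest to group B were col-183 and col-72 (both r = 0.98). Closest to group A were col-81 and col-129 (both r = 0.92). Others followed less, with r = 0.78 between col-40 and B and r = 0.31 between col-95 and A. The 16 were set apart with earlier results of these data known, so these matches are descriptions too.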
